A study of Brachypodium distachyon with 214 samples.

Results

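Plants of one inbred line, dried in the same way, did not show the same leaf response, and the strongly responding end of that range was set against the weakly responding end. The 16 strong and the 16 weak plants were taken from 49 droughted plants of Brachypodium distachyon Bd21, in a series of 214 plants. Strength was read from 3 genes of the study's module Bd21d12. For each plant the counts of Bradi4g40850, Bradi1g51770 and Bradi2g45054 were scaled to a library of 1000000 counts (CPM), and the mean of their log2(CPM + 1) was its score. The members were thus chosen by measured levels of these 3 genes: the 16 plants with the highest scores were called strong, the 16 with the lowest weak and the 17 between them intermediate. The study grew the inbred accessions Bd21, the reference line of this annual grass, and Bd3-1, and measured leaf messenger RNA. Each library came from 1 plant. Watering of the droughted plants of both accessions was reduced from day 33, and leaves were taken after 6 days, when the soil held 55% of field capacity, the water kept after free drainage. Control plants were held at 85% of field capacity. Beside the end groups, 48 control plants of Bd21, 59 droughted plants of Bd3-1 and 58 control plants of Bd3-1 were used. Strong and weak plants therefore shared line, treatment and age at harvest, and the names say only how high the 3 genes were.

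In a leaf that loses water the hormone abscisic acid accumulates. The 9-cis-epoxycarotenoid dioxygenases make its precursor and the ABA 8′-hydroxylases break it down, while phosphatases of the HAB type hold the signal off until the hormone is bound by its receptors. The signal closes stomata and turns on genes for dehydrins and other late embryogenesis abundant (LEA) proteins, small hydrophilic proteins that protect cells against drying. Roles of single loci are given here as the study's text gives them, mostly by their orthologs in Arabidopsis or rice, and a locus for which it gives none is named only. The first digit of a locus name is its chromosome.

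The 3 genes of the score were chosen for their level, and their values are a description with no test. Bradi4g40850, for which no function is given, had 12.4 CPM in the lowest, 29.5 CPM in the median and 61.5 CPM in the highest strong plant, against 0, 1.24 and 5.84 CPM in weak plants. Its highest value in a control plant was 1.77 CPM. Bradi1g51770, a LEA protein gene, had 16.2, 23.9 and 42.8 CPM in strong plants and 2.60, 10.1 and 19.8 CPM in weak plants (lowest, median and highest, as in the remainder of the text). Bradi2g45054, with no function given, had 15.2, 23.8 and 46.0 CPM in strong plants and 3.26, 7.11 and 17.4 CPM in weak plants. The ratio of the medians was 23.7 for Bradi4g40850, against 2.37 and 3.35 for Bradi1g51770 and Bradi2g45054, so the first of the 3 genes spread the plants most. Ranked on 1 gene at a time, 14 of the 16 strong plants stayed among the top 16 on Bradi4g40850, 12 on Bradi1g51770 and 14 on Bradi2g45054. Scores were 4.36, 4.63 and 5.60 in strong, 3.41, 3.64 and 4.26 in intermediate, 1.55, 2.54 and 3.31 in weak and 0, 0.68 and 1.77 in control plants. The division was not at a gap: the last strong plant had 4.36 and the next plant 4.26, and the last intermediate plant had 3.41 and the first weak plant 3.31. Of the 49 droughted plants 47 lay above the highest control plant, and 2 weak plants lay within the control range. Droughted Bd3-1 plants covered nearly the same span, 1.70, 3.89 and 5.46.

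**Figure D1:**
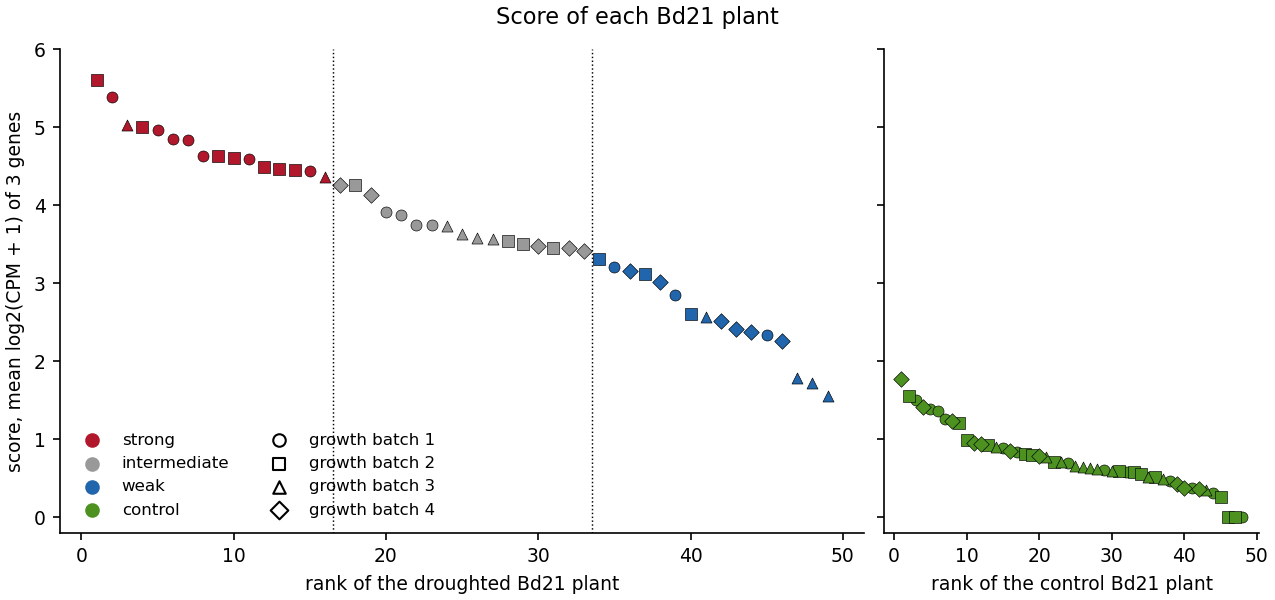
Score of each Bd21 plant, the mean log2(CPM + 1) of 3 genes, with droughted plants ranked on the left and control plants on the right. Colours mark strong, intermediate, weak and control plants, shapes the growth batch and dotted lines the bounds of the groups. Scores ran from 5.60 to 1.55 in droughted plants without a gap, and 0 of the strong plants came from growth batch 4.

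Growth batch moved with the groups. Growth batches are those of the study's sample sheet. Batches 1 to 4 held 7, 7, 2 and 0 strong plants against 3, 3, 4 and 6 weak plants (permutation p = 0.0188 for the chi-square, 0.0564 after adjustment over 6 comparisons). Median scores of droughted plants in these batches were 4.17, 4.36, 3.57 and 3.16 in Bd21 and 4.25, 3.57, 3.89 and 3.67 in Bd3-1. The library totals of strong plants exceeded those of weak plants by 0.24 in the mean log2 total (permutation p = 0.0301, adjusted p = 0.0601). Strong libraries had 20805 genes above 0 on average and weak libraries 20280 (adjusted p = 0.0564). RNAseq plate (p = 1) and extraction batch (p = 0.327) did not pass. Extraction batches held few plants each, so that test could miss a shift: batch 10 held 0 strong and 4 weak plants, and batches 5, 7 and 14 each held 2 strong and 0 weak plants. The plastid share of the counts had means of 6.99% in strong and 7.52% in weak plants (permutation p = 0.050, adjusted p = 0.075). The leaf label fits the plastid sequences, which took a median of 6.91% of the counts in strong and 7.58% in weak plants. The part of depth and growth batch in the results was not tested beyond the values given beside them. One library labelled droughted Bd3-1, replicate 59, stood apart: of 86 genes whose levels did not overlap between Bd21 and the other 116 Bd3-1 plants, it lay inside the Bd21 range for 81 and inside the Bd3-1 range for 1.

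The question was which other genes differ between plants that differ in these 3. All other genes with a mean of at least 2 CPM over the 49 plants were tested, 15673 in number, by the quasi-likelihood method of edgeR, with p-values adjusted after Benjamini-Hochberg and a threshold of 0.05. Strong plants had 261 genes higher (1.67% of those tested) and 309 genes lower (1.97%) than weak plants, and 94 of the 570 differed at least 2-fold. Genes of abscisic acid and dehydrins stood on the higher side, and the F3H genes and several loci with no role given on the lower side. All genes were measured in the same libraries as the 3 of the score. In whole leaves, fewer cells of a type and less RNA per cell cannot be told apart in any of these values. A single gene had no overlap, and it was higher (0.00638% of those tested, against 0% lower). That gene, Bradi3g14970, had 28.6, 37.2 and 54.0 CPM in strong and 12.0, 20.5 and 26.9 CPM in weak plants, and it was singled out after its values were seen.

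With growth batch as a term in the model, 44 genes were higher (0.281%) and 28 lower (0.179%). All 570 genes kept their direction in that fit, but they had been called on these same plants. The call was kept in 44 of the 261 higher and 27 of the 309 lower genes. The median log2 fold change of the higher genes was 0.54 with the term, against 0.60 without it. For the lower genes it was -0.46, against -0.54. Without the plants of growth batch 4, which held 6 weak and 0 strong plants, 189 genes were called. When the score entered as a number over all 49 plants with growth batch as a term, 277 genes had a positive slope (1.77%) and 209 a negative one (1.33%), among them 64.4% of the 261 and 39.8% of the 309. The last of these fits was chosen after the data were seen. It used every droughted Bd21 plant, among them the 32 on which the 570 had been called. In a fit chosen after the data were seen, growth batch 4 was set against batches 1 to 3 together among the 48 control plants. It differed in 1 gene by edgeR, Bradi3g12450 (log2 -1.56, adjusted p = 0.0016). That gene was none of the 570, and 24 of the 261 and 42 of the 309 had an unadjusted p under 0.05 there, against 1035 of all 15673. Differences among batches 1, 2 and 3 in control plants were not tested, so this fit does not show how little or how much growth batch matters without drought.

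The plants of Bd3-1 had no part in choosing the groups. Regressed on the same score over 59 droughted Bd3-1 plants, 641 genes rose with it (4.09%) and 759 fell (4.84%). Of the 261 genes higher in strong Bd21 plants 143 rose with the score in Bd3-1, 0 fell and 248 had a positive slope. Of the 309 lower genes 109 fell, 1 rose and 282 had a negative slope. Without replicate 59 the numbers were 146 of the 261 and 110 of the 309, and with growth batch and plate as terms 125 and 66. These were 54.8% of the higher and 35.3% of the lower genes with all 59 plants, and the difference of those shares was not tested.

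The abscisic acid and drought list, 11 genes that the study names from its module Bd21d12, was mostly higher. It is called the abscisic acid list for short. The study annotates Bradi3g39800, Bradi2g20660, Bradi2g23740 and Bradi3g00920 of it otherwise than by a role in the hormone's synthesis, breakdown or signal. Of the 11 genes, 10 were higher in strong plants and 1 was lower, against 1.67% and 1.97% of all tested genes. The median log2 fold change was 0.86, against -0.01 over all tested genes. The list is not independent evidence of its direction, because the study built the module from co-expression among 48 droughted Bd21 plants of this series and the 3 genes of the score belong to it. With growth batch as a term 9 remained higher.

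Bradi1g13760, the ortholog of AtNCED2 in abscisic acid synthesis, had 8.76, 15.2 and 29.4 CPM in strong and 2.29, 5.47 and 9.84 CPM in weak plants, 2.78 times as much (log2 1.48 ± 0.18, SE, adjusted p = 1.9e-06, or 0.0023 with growth batch as a term). All 16 strong plants lay above the weak median, and 3 weak plants lay above the lowest strong one. Control plants reached at most 2.16 CPM, below every droughted plant of either end. Bradi3g52660, the ortholog of AtCYP707A1 that breaks the hormone down, had 40.2, 55.8 and 93.2 CPM in strong and 18.4, 31.1 and 47.0 CPM in weak plants (log2 0.76 ± 0.12, adjusted p = 4.7e-05). Synthesis and breakdown genes were thus both higher in the same plants. The slopes of Bradi3g52660 were not alike on their face, 0.27 log2 units per unit of score over 49 Bd21 plants with growth batch as a term and 0.03 (adjusted p = 0.87) in Bd3-1, but the difference of slopes did not pass the test (adjusted p = 0.25).

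The orthologs of the phosphatases differed less. Bradi2g18510 (AtHAB1) had 24.9, 36.7 and 52.8 CPM in strong and 9.94, 22.9 and 33.97 CPM in weak plants (log2 0.69 ± 0.10, adjusted p = 3.8e-05). Bradi2g41950 (AtHAB2) had 21.7, 33.7 and 44.6 CPM in strong and 12.9, 21.6 and 29.8 CPM in weak plants (log2 0.67 ± 0.11, adjusted p = 0.00012), with 8 weak plants above the lowest strong one. Among the transcription factors, Bradi4g39520, the ortholog of the repressor AtAITR3 that feeds back on the hormone's signal in Arabidopsis, had 21.2, 29.2 and 46.1 CPM in strong and 7.53, 13.6 and 27.5 CPM in weak plants (log2 1.09 ± 0.13, adjusted p = 2.8e-06). A single weak plant lay above the lowest strong one. Bradi2g15940, the ortholog of the bZIP factor AtGBF2, was 1.90 times higher (log2 0.93 ± 0.14, adjusted p = 3.8e-05). Bradi3g50220, the ortholog of the homeobox factor ATHB-7 of Arabidopsis, was 1.81 times higher, but its value is uncertain: 96.2% of its counts above 0 held a fraction, which arises when reads are divided between transcripts.

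The study links Bradi3g39800 and Bradi2g20660 to stomatal movement. Bradi3g39800 had 14.5, 32.7 and 67.7 CPM in strong and 9.12, 14.3 and 25.3 CPM in weak plants (log2 1.18 ± 0.18, adjusted p = 3.8e-05). Bradi2g20660 was closer between the ends, 14.5, 17.2 and 25.2 CPM in strong and 5.78, 13.4 and 25.6 CPM in weak plants (log2 0.48 ± 0.13, adjusted p = 0.030), and its call was lost with growth batch as a term (adjusted p = 0.38) and without strong replicate 12 (adjusted p = 0.053) or weak replicate 2 (adjusted p = 0.054). Bradi2g23740, linked to wax biosynthesis, was the list's one lower gene, with 13.9, 27.4 and 33.99 CPM in strong and 24.8, 42.8 and 61.1 CPM in weak plants (log2 -0.64 ± 0.11, adjusted p = 0.00029). Weak plants were near the control median of 44.6 CPM for this gene. Its call was lost with growth batch as a term (adjusted p = 0.12), and 50.9% of its counts above 0 were not whole.

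The largest difference in the list belonged to Bradi3g00920, a leucine-rich repeat family gene. It had 21.7, 40.5 and 130 CPM in strong plants, 8.91, 22.7 and 35.5 CPM in intermediate plants, 1.65, 8.79 and 35.0 CPM in weak plants and 0.495, 2.30 and 4.12 CPM in control plants. Strong plants had 4.75 times the level of weak plants (log2 2.25 ± 0.28, adjusted p = 2.8e-06, and log2 2.01, adjusted p = 0.0023, with growth batch as a term), and 1 weak plant lay above the lowest strong one. In droughted Bd3-1 it had 0, 1.88 and 9.01 CPM and its slope on the score was 0.02 ± 0.15 (adjusted p = 0.98). The slope in Bd21 exceeded that in Bd3-1 by 1.03 log2 units per unit of score (adjusted p = 0.015, threshold 0.1), and by 0.99 (adjusted p = 0.015) without replicate 59. The loci with the 3 names before it were in the same module and were also higher in strong plants. Bradi3g00910 had 37.5, 113.2 and 430 CPM in strong and 13.0, 52.5 and 118 CPM in weak plants (log2 1.25 ± 0.26, adjusted p = 0.0029), Bradi3g00900 had medians of 8.44 and 3.80 CPM (log2 1.39 ± 0.33) and Bradi3g00890 medians of 4.39 and 0.760 CPM (log2 1.87 ± 0.36) in strong and weak plants. They were singled out for their names after their values were seen. The share of counts above 0 that were not whole was 21.8% for Bradi3g00920, 66.0% for Bradi3g00910, 97.9% for Bradi3g00900 and 35.0% for Bradi3g00890, so reads could be divided among similar transcripts, and of the 4 only Bradi3g00920 kept its call with growth batch as a term.

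The dehydrin and drought list holds 4 genes of the study's modules. All 4 were higher in strong plants, against 1.67% of all tested genes, with a median log2 fold change of 1.46. The study built its modules from plants of this series, so their direction is not independent evidence. The dehydrins Bradi1g37410 and Bradi3g43870 had means of 2.39 and 2.16 CPM over the 49 plants, just past the 2 CPM required for a test. They met that level through the strong plants, where they are high, so their calls are no support. Bradi1g37410, a dehydrin and ortholog of RAB18, had 0.616, 4.10 and 16.3 CPM in strong and 0, 0.513 and 2.45 CPM in weak plants, where no library held more than 4 counts and 6 of 16 held 0. The fitted log2 fold change of 2.93 ± 0.42 (adjusted p = 2.5e-05, or 0.013 with growth batch as a term) rests on those few counts. Control plants held 0 counts in 40 of 48 libraries. Bradi3g43870, the second RAB18 ortholog, had 1.84, 3.05 and 7.23 CPM in strong and 0, 0.632 and 3.41 CPM in weak plants (log2 2.04 ± 0.31, adjusted p = 4.7e-05). Bradi4g24650, the ortholog of the rice stress gene ASR5, was the abundant member, with 449, 646 and 897 CPM in strong and 244, 382 and 667 CPM in weak plants (log2 0.73 ± 0.12, adjusted p = 0.00015). Every plant of both ends lay above the highest control plant, at 231 CPM. Bradi1g44480, the ortholog of IAR4, had 6.86, 13.0 and 21.2 CPM in strong and 2.37, 6.98 and 14.7 CPM in weak plants (log2 0.88 ± 0.17, adjusted p = 0.0015), and its call was lost with growth batch as a term, where the log2 fold change was 0.81 (adjusted p = 0.088).

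**Figure D2:**
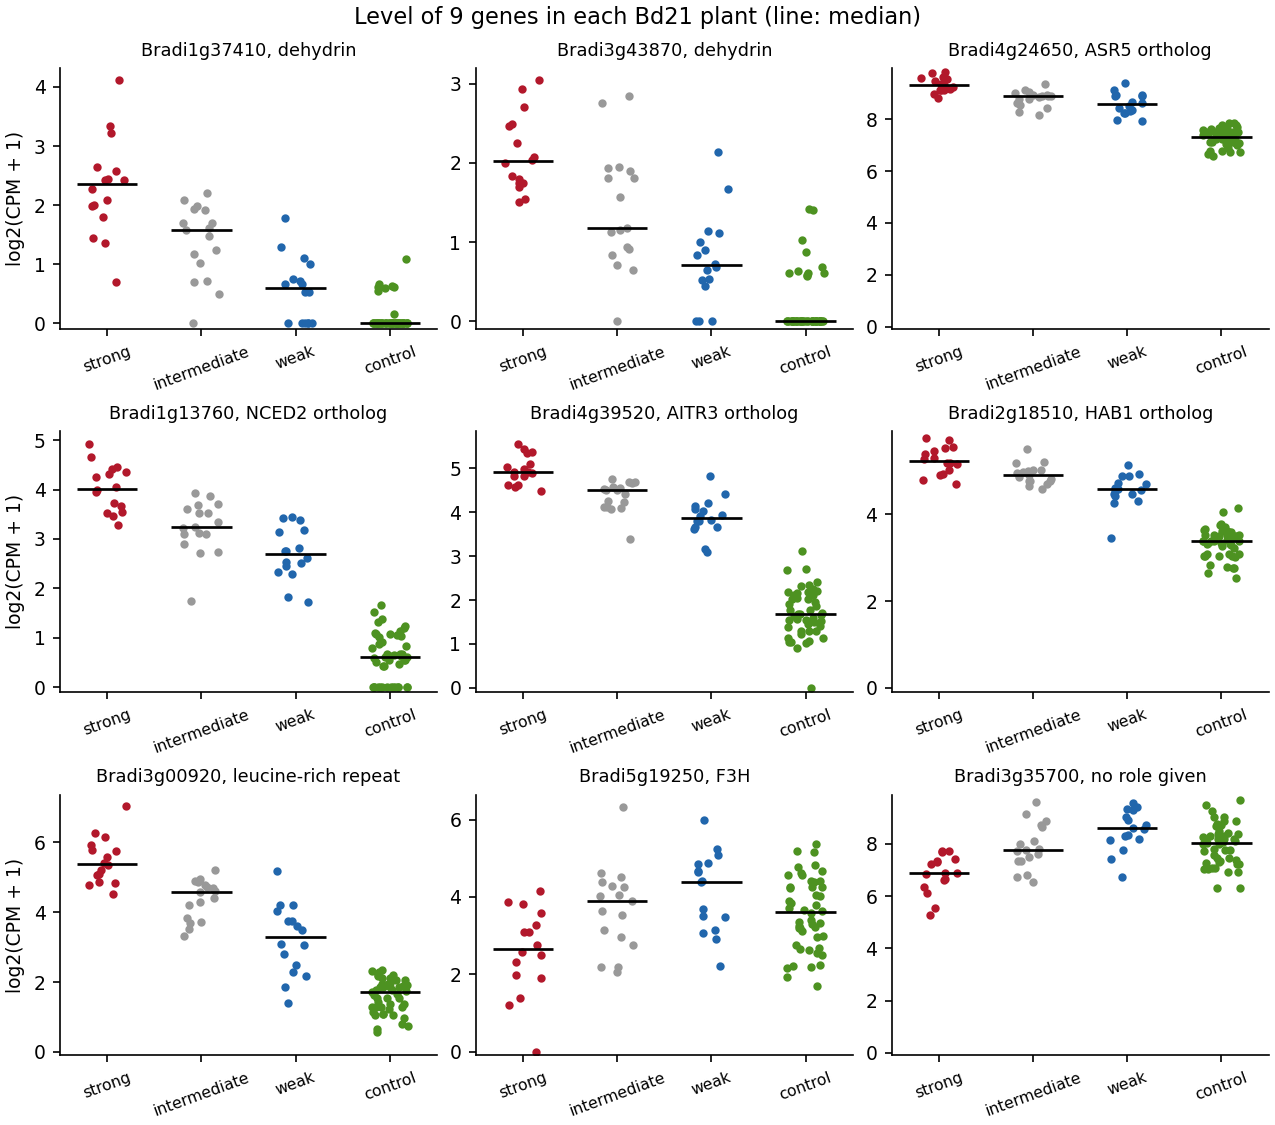
Level of 9 genes as log2(CPM + 1) in each strong, intermediate, weak and control Bd21 plant, 1 point a plant, with a line at the median. The dehydrin, ASR5, NCED2, AITR3, HAB1 and leucine-rich repeat genes were ordered strong, intermediate, weak, control in their medians, while F3H and Bradi3g35700 were lowest in strong plants and highest in weak ones.

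Dehydrins also marked the module defined in the study from droughted plants of both accessions (Bd21d13 and Bd3-1d8). All 13 of its shared genes were higher in strong plants, against 1.67% of all tested genes. Their median log2 fold change was 1.13, and 8 kept their call with growth batch as a term. In Bd3-1 all 13 rose with the score, against 4.09% of all tested genes. The study formed this module on these same plants, so its direction is not independent evidence. Its dehydrin Bradi1g37410 met the level of 2 CPM required for a test only through the strong plants. Of its loci with no role given, Bradi4g17200 had 3.49, 7.60 and 18.5 CPM in strong and 0, 1.18 and 8.58 CPM in weak plants, and Bradi3g45080 had 0.419, 4.15 and 6.66 CPM in strong and 0, 0.640 and 2.19 CPM in weak plants. Bradi3g45080 stood at 0, 0.581 and 3.17 CPM in control plants, much as in weak plants. Its log2 fold change over control was 2.24 in strong and -0.15 in weak plants. Of module Bd21d12, 43 of the 45 genes that were not part of the score were tested. In strong plants 36 were higher and 4 lower, against 1.67% and 1.97% of all tested genes. With growth batch as a term 16 were higher and 1 lower, and without the plants of growth batch 4 18 were higher and 3 lower.

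By size alone, the 12 largest higher differences among genes with a mean of at least 10 CPM and few divided reads ran from log2 1.01 to 2.25, and 9 of them kept their call with growth batch as a term. They included Bradi3g00920, Bradi1g13760, Bradi3g39800 and Bradi4g39520 of the abscisic acid list. The other 8 had no role given. Bradi1g51245 had 65.6, 90.1 and 112 CPM in strong and 19.9, 40.3 and 79.8 CPM in weak plants (log2 1.07 ± 0.13, adjusted p = 2.8e-06), with 1 weak plant above the lowest strong one. Bradi2g52310 had 37.3, 54.5 and 86.7 CPM in strong and 13.1, 26.2 and 49.2 CPM in weak plants (log2 1.01 ± 0.14, adjusted p = 1.4e-05). Bradi1g45710 and Bradi1g11240 were 2.47 and 2.32 times higher. Bradi3g46320, Bradi3g11470, Bradi2g06670 and Bradi3g26745 were 2.22, 2.19, 2.25 and 2.105 times higher, and of these 4 only Bradi3g26745 kept its call with growth batch as a term (adjusted p = 0.021). In Bd3-1, 10 of the 12 rose with the score, against 4.09% of all tested genes. There Bradi3g00920 and Bradi3g39800 (slope 0.21, adjusted p = 0.060) did not pass.

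On the lower side, the phenylpropanoid and wounding list held 8 genes. In strong plants 2 were lower and 0 higher, against 1.97% lower and 1.67% higher of all tested genes. Both lower genes were annotated as F3H, flavanone 3-hydroxylase of the flavonoid pathway. Bradi5g19250 had 0, 5.35 and 16.7 CPM in strong plants, 3.15, 13.8 and 79.4 CPM in intermediate plants, 3.62, 20.0 and 62.6 CPM in weak plants and 2.26, 11.2 and 40.4 CPM in control plants (log2 strong over weak -1.73 ± 0.34, adjusted p = 0.0017). All strong plants lay below the weak median. Bradi2g54090 had 0.399, 2.42 and 9.49 CPM in strong and 0.723, 9.30 and 22 CPM in weak plants (log2 -1.80 ± 0.35, adjusted p = 0.0013). With growth batch as a term their adjusted p were 0.19 and 0.053, so neither passed. In Bd3-1, 0 of the 8 genes of the list had a slope on the score past the threshold. Of all tested genes 4.09% rose and 4.84% fell there. In the list 4 slopes were positive and 4 negative. The PAL gene Bradi5g15830, at the entry of the pathway, had medians of 18.1 CPM in strong and 31.2 CPM in weak plants (adjusted p = 0.077, or 0.040 and 0.048 without replicate 9 or 34), with 56.5% of its counts above 0 not whole, and the allene oxide cyclase gene Bradi1g15840 of jasmonate synthesis had medians of 19.3 and 23.9 CPM (adjusted p = 0.13).

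The 12 largest lower differences ran from log2 -2.09 to -1.39, and 3 kept their call with growth batch as a term. In Bd3-1, 2 of these 12 fell with the score and 0 rose, against 4.84% and 4.09% of all tested genes. All 12 had a negative slope there (median -0.27), against 7841 of all 15673 genes. Bradi3g15040, for which no role is given, had 21.9, 56.9 and 155 CPM in strong and 27.0, 264 and 781 CPM in weak plants (log2 -2.09 ± 0.34, adjusted p = 0.00015, or 0.094 with growth batch as a term). Weak plants covered most of the control range of 25.8, 121 and 814 CPM, and 6 weak plants lay below the highest strong one. Bradi3g35700 had 37.4, 118 and 213 CPM in strong and 105, 388 and 752 CPM in weak plants (log2 -1.70 ± 0.23, adjusted p = 1.2e-05, or 0.015 with growth batch as a term), and 2 weak plants lay below the highest strong one. Bradi1g26800 had 2.79, 6.34 and 14.9 CPM in strong and 6.51, 20.1 and 52.1 CPM in weak plants (adjusted p = 9.1e-05, or 0.049 with growth batch as a term). Bradi1g45535 had 3.10, 10.7 and 20.2 CPM in strong, 13.0, 23.2 and 95.4 CPM in weak and 32.7, 59.5 and 90.9 CPM in control plants (log2 -1.41 ± 0.24, adjusted p = 0.00023, or 0.0088 with growth batch as a term). It was the one among the 12 that was lower than in control plants at both ends.

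The other lower loci had long tails in weak plants. Bradi1g25440 had a weak median of 11.9 CPM and a highest weak value of 171 CPM, Bradi3g14710 had 9.98 and 126 CPM, Bradi3g02130 had 25.4 and 176 CPM and Bradi4g39920 had 385 and 1804 CPM. Bradi4g20520, which the study names with no function, had 13.7, 30.1 and 102 CPM in strong and 7.23, 79.8 and 557 CPM in weak plants (log2 -1.52 ± 0.42, adjusted p = 0.033), and Bradi1g20950 had 9.97, 24.7 and 108 CPM in strong and 7.23, 81.1 and 320 CPM in weak plants (adjusted p = 0.020). Bradi3g35660 had 2.79, 6.39 and 18.0 CPM in strong and 2.89, 25.7 and 60.3 CPM in weak plants (adjusted p = 3.8e-05). Without 1 weak plant, replicate 36, the calls of Bradi1g25440 (log2 -1.25, adjusted p = 0.067), Bradi3g14710 (-1.04, 0.089), Bradi4g20520 (-1.02, 0.12) and Bradi1g20950 (-1.11, 0.058) were lost. That of Bradi4g20520 was also lost without any of 6 other plants. None of these 7 kept its call with growth batch as a term, where the adjusted p ran from 0.053 for Bradi3g35660 to 0.68 for Bradi4g39920.

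Of the 11 genes of carbon metabolism and light, 2 were lower in strong plants and 0 higher, against 1.97% and 1.67% of all tested genes. An unadjusted p under 0.05 by edgeR was found in 4 of the 11, against 2639 of all 15673 genes. The flavonoid genes of this list were not among those called. The log2 fold change was -0.13 for Bradi3g04750 (flavonoid 3′-hydroxylase) and 0.13 for Bradi2g48450 (flavanone 2-hydroxylase). Bradi3g52350, a 4-coumarate:CoA ligase of the phenylpropanoid pathway, had 25.8, 35.7 and 70.1 CPM in strong and 30.0, 62.7 and 109 CPM in weak plants (log2 -0.69 ± 0.14, adjusted p = 0.0031), and Bradi1g18650, a glucanotransferase, had medians of 238 CPM in strong and 335 CPM in weak plants (log2 -0.46 ± 0.13, adjusted p = 0.037). Neither kept its call with growth batch as a term, and that of Bradi1g18650 was also lost when any of 10 plants was left out. The cell-wall invertase Bradi3g44990, which splits sucrose outside the cell, had 17.2, 26.4 and 33.49 CPM in strong and 25.3, 35.0 and 73.0 CPM in weak plants (log2 -0.57 ± 0.12, adjusted p = 0.0031, or 0.22 with growth batch as a term).

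Photosynthesis genes, the first 48 listed by the study for its photosynthesis modules, leaned lower. In strong plants 7 were lower and 0 higher, against 1.97% and 1.67% of all tested genes. With growth batch as a term 2 kept their call. A negative log2 fold change was found in 8144 of all 15673 genes and in 46 of these 48, whose median was -0.29. Together they took a median of 16417 CPM in strong, 15211 CPM in intermediate, 18330 CPM in weak and 25223 CPM in control plants, with overlapping ranges, so the summed level did not follow the order of the scores. The smallest adjusted p of the 7, 3.8e-05, belonged to Bradi1g72790, with medians of 33.7 CPM in strong and 56.5 CPM in weak plants. In Bd3-1, 41 of the 48 fell with the score and 1 rose, against 4.84% and 4.09% of all tested genes. The difference of slopes between the accessions was called by edgeR in 0 of the 48, with an unadjusted p under 0.05 in 13, against 1456 of all 15673.

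Few genes of the other lists passed the test. Of the 6 clock genes 0 were called by edgeR and 2 had an unadjusted p under 0.05, against 2639 of all 15673 genes. The LHY and CCA1 ortholog Bradi3g16515 had medians of 12.6 CPM in strong and 20.2 CPM in weak plants (adjusted p = 0.31). Of the 26 genes of the clock modules Bradi2g41590 was higher, with a log2 fold change of 0.57, and Bradi2g47540 (-0.61) and Bradi5g00980 (-0.53) were lower, against 1.67% higher and 1.97% lower of all tested genes. None of the 3 kept its call with growth batch as a term, where the adjusted p were 0.26, 0.21 and 0.32, or without the plants of growth batch 4. Of 6 tested genes of the list of NAC factors and chlorophyll 0 were called by edgeR and 1 had an unadjusted p under 0.05, against the same 2639 of 15673. The stay-green gene Bradi4g36060 had medians of 26.4 and 26.3 CPM in strong and weak plants. Of 30 cell wall genes 1 was higher, against 1.67% of all tested genes. It was Bradi1g66720, with medians of 27.2 CPM in strong and 15.6 CPM in weak plants (log2 0.90 ± 0.24, adjusted p = 0.028, or 0.11 with growth batch as a term and 0.19 without the plants of growth batch 4). The summed level of the list had medians of 966 CPM in strong and 1084 CPM in weak plants. Of 73 plastid sequences, which are not paired with gene names, 1 was lower, against 1.97% of all tested genes. A negative log2 fold change was found in 66 of the 73, with a median of -0.18, against 8144 of all 15673 genes.

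**Figure D3:**
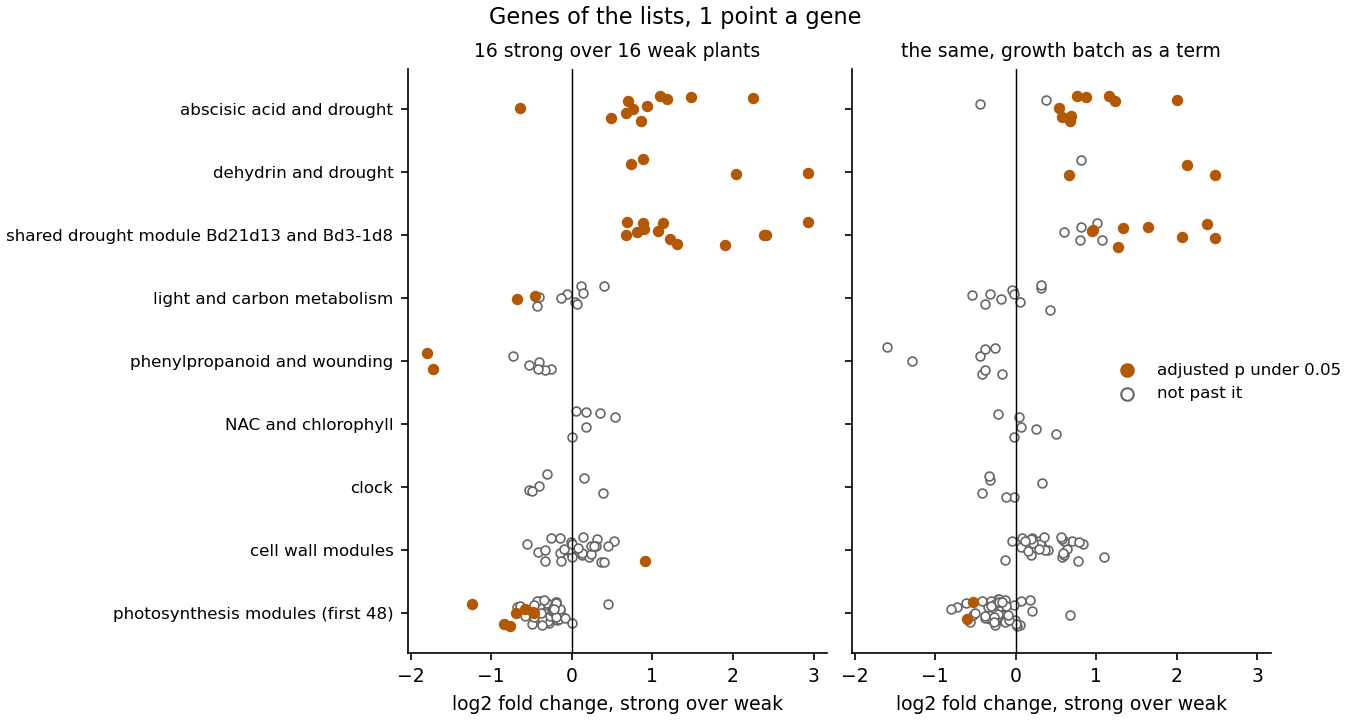
Log2 fold change of strong over weak plants for the genes of 9 lists, 1 point a gene, without (left) and with (right) growth batch as a term; filled points passed an adjusted p of 0.05. The genes of the first 3 lists lay above 0 except Bradi2g23740 at -0.64, and the call was kept in 9, 3 and 8 genes of them on the right.

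Set against watered plants, both ends had responded, the strong end in more genes. Strong plants had 2332 genes higher (14.9%) and 2408 lower (15.4%) than control plants, and weak plants had 1011 higher (6.45%) and 960 lower (6.13%). The comparisons share the 48 control plants, so each gene's values are given side by side and nothing is read from their overlap. Of the 11 genes of the abscisic acid list 10 were higher and 1 lower than control in strong plants, and 10 were higher and 0 lower in weak plants. Bradi1g13760 had a log2 fold change over control of 4.62 in strong and 3.15 in weak plants, Bradi4g39520 of 3.52 and 2.43, and Bradi2g18510 of 1.91 and 1.22. Weak plants thus had clear changes in these genes. That the changes were smaller than in strong plants restates the difference between the ends and is no further result. All 4 genes of the dehydrin list were also higher than control at both ends.

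The F3H genes stood otherwise. Bradi5g19250 was lower than control in strong plants (log2 -1.18, adjusted p = 0.0029), with 0.55 (adjusted p = 0.19) in weak plants, and Bradi2g54090 was lower in strong plants (-1.66, adjusted p = 0.00043), with 0.14 (adjusted p = 0.85) in weak plants. Bradi3g35660 was lower than control in strong plants (-1.25, adjusted p = 0.00051) and higher in weak plants (0.69, adjusted p = 0.043). Bradi1g20950 had -0.16 (adjusted p = 0.80) in strong plants and was higher in weak plants (1.25, adjusted p = 0.0059). The fit against control that gave these values held no term for growth batch, which moved with the groups. With growth batch as a term none of the genes of this paragraph kept its call between strong and weak plants. The part of growth batch in their place relative to control plants was not tested.

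**Figure D4:**
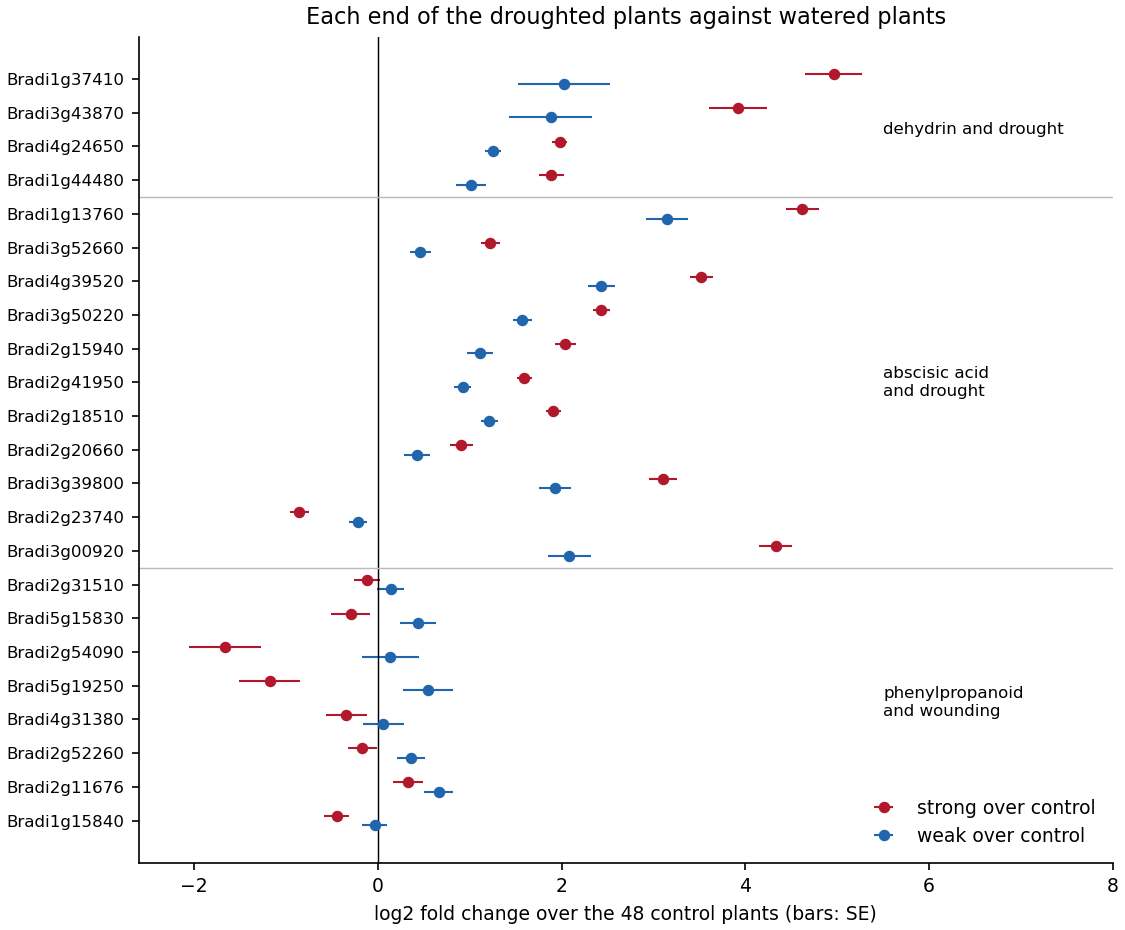
Log2 fold change over the 48 control plants of strong and of weak droughted plants for the dehydrin, abscisic acid and phenylpropanoid lists, with bars for the standard error. In the first pair of lists strong plants lay farther from 0 than weak plants for every gene, which restates the difference between the ends. Bradi5g19250 had -1.18 in strong and 0.55 in weak plants, in a fit without growth batch.

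Droughted against control plants of Bd3-1, which share no plant with the end groups, had 3515 genes higher (22.4%) and 3462 lower (22.1%). Of the 261 genes higher in strong Bd21 plants 224 were higher and 1 lower under drought in Bd3-1, and of the 309 lower genes 219 were lower and 17 higher. Without replicate 59 these numbers were 222 and 1, and 223 and 13.

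Slopes on the score were compared between the accessions with the product of score and accession in the model. At a threshold of 0.1, 12 genes differed (0.0766% of those tested), and Bradi3g00920 was the only one of them on the lists of genes from the study's text. The dehydrin slope in Bd3-1 was 1.61 ± 0.15 for Bradi1g37410, where the difference Bd21 minus Bd3-1 was -0.34 (adjusted p = 0.73), and 1.21 ± 0.17 for Bradi3g43870, with a difference of -0.41 (adjusted p = 0.62). For Bradi1g13760 the slope in Bd3-1 was 0.78 ± 0.08 and the difference -0.13 (adjusted p = 0.77). A p that misses the threshold does not show that these slopes were alike.

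**Figure D5:**
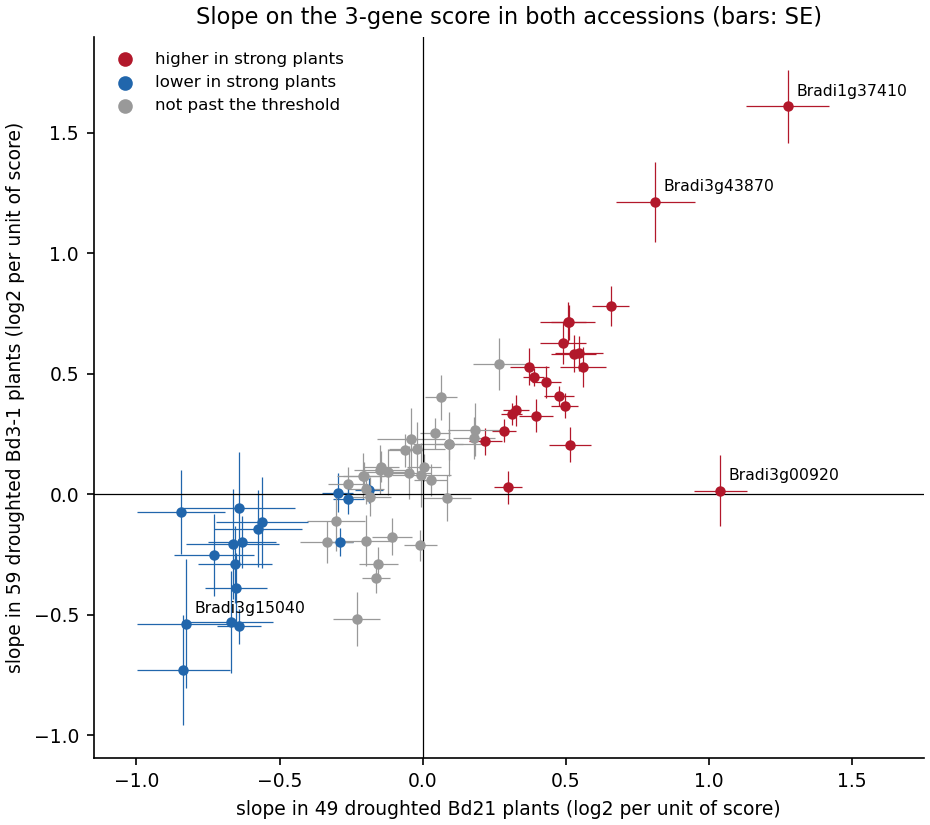
Slope on the 3-gene score, in log2 units per unit of score, over 49 droughted Bd21 plants and over 59 droughted Bd3-1 plants, for the tested genes named in the study's text and the 12 largest differences in each direction, with bars for the standard error. Bradi3g00920 stood at 0.02 in Bd3-1 despite its slope in Bd21, and the dehydrin Bradi1g37410 had 1.61 in Bd3-1.

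The 17 intermediate plants, which entered neither end, had scores within 3.41 to 4.26. Across them 0 genes had a slope on the score past the threshold, by edgeR with either set of size factors. An unadjusted p under 0.05 was found in 690 of 15673, with 783.7 expected by chance. The direction was that of the end groups in 158 of the 261 higher genes (60.5%, against 47.9% of all tested genes with a positive slope). The same held for 183 of the 309 lower genes, against 8161 of all 15673 with a negative slope. For the 261 and the 309 the numbers with an unadjusted p under 0.05 were 23 and 7, with 13.05 and 15.45 expected by chance.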

How the data were processed

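Leaf RNA of 214 plants was measured by 3′ digital gene expression, which counts a tag near the end of each transcript. The authors trimmed reads (Trimmomatic 0.39, cutadapt 2.10), aligned them, for Bd3-1 too, to Bd21 transcripts (Bowtie2 2.4.0), collapsed molecular identifiers and deposited RSEM 1.3.3 expected counts, not normalized. Expected counts were rounded and tested with edgeR 4.0.16 (quasi-likelihood, TMM factors, two-sided, Benjamini-Hochberg over 15673 genes) in R 4.3.3. Standard errors were taken as the absolute log2 fold change over the root of F. DESeq2 1.42.0 and other settings were alternatives, and the fits were tested on simulated data. Permutation tests used 100000 resamples. Growth batch, plate and extraction batch come from the study's sample sheet.

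Library totals were 1604484 to 2536181 counts in strong, 1210579 to 2740500 in weak and 970108 to 8370006 in control plants and set the precision, while the printed standard errors include the spread between plants. Named genes are the 3 score genes, the loci in the study's text and the 12 largest differences per direction with adjusted p under 0.05, a mean of at least 10 CPM and under 25% of counts not whole. The members, lists and tests were chosen with earlier results of these data known. Ranking plants by measured genes means that the comparison is an association among droughted plants, not a treatment effect. Gene sequences and symbols were not used here, since the reference table does not pair these loci with its genes.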

Additional observations from a re-analysis of the deposited data

Results flagged for a closer look

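The slope on the 3-gene score differed between the accessions, Bd21 minus Bd3-1, in 12 genes (edgeR, adjusted p under 0.1 for the product of score and accession). It was steeper in Bd21 for Bradi3g00920 (1.03 log2 units per unit of score), Bradi1g61010 (0.543) and Bradi1g56090 (0.249). The difference was negative for Bradi1g78246 (-1.25), Bradi3g30540 (-0.641), Bradi2g52110 (-0.581), Bradi5g20520 (-0.477), Bradi3g48530 (-0.397), Bradi4g03670 (-0.288), Bradi3g59270 (-0.28), Bradi2g20460 (-0.256) and Bradi1g46440 (-0.232). Bradi2g52110 was lower in strong than in weak Bd21 plants (log2 -0.72, adjusted p = 0.0072) and rose with the score in Bd3-1 (slope 0.33, adjusted p = 0.025). With growth batch and plate as terms Bradi5g20520 did not pass (adjusted p = 0.118), and the other 11 passed with other size factors, without replicate 59 of Bd3-1 and with those terms.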

How the results depend on the processing

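Of the settings tried for strong against weak plants, which called 570 genes, growth batch moved the number most. It was 72 with growth batch as a term, 76 with growth batch, plate and log2 library total as terms, and 189 without the plants of growth batch 4, a setting chosen after seeing the data. It was 342 with libraries thinned to the lowest total, 304 with 24 plants an end and 374 with the score built without Bradi4g40850. Leaving out 1 plant at a time gave 461 without replicate 21 to 834 without replicate 4, and no called gene that is named changed direction in any setting. Of 39 named genes called, 20 kept their call with growth batch as a term, and in 33 no left-out plant ended it. The count of slope differences, 12, was 20 without replicate 59 of Bd3-1 and 24 with growth batch and plate as terms. Replicate numbers did not pair droughted with control plants by the set criterion of every pair over 0.1 (mean correlation 0.0832 over 48 pairs, 23 of them over 0.1, against a mean of -0.00165 over other pairs, with 5 plants closest to their own number). With the number as a replicate block, weak plants differed from control in 958 genes, against 1971 without it, and strong plants in 3772, against 4740. Depth limits genes below a few CPM, such as the dehydrins, whose weak libraries held at most 4 or 5 counts.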
